A study of Homo sapiens with 6 samples.

Results

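The SR splicing factor genes examined here are SRSF1, SRSF2, SRSF3, SRSF4, SRSF5, SRSF6, SRSF7, SRSF9, SRSF10 and SRSF11. They were chosen by name, and each of the 10 names matched 1 row among the 42307 genes listed in every library. RNA was sequenced from U251, an established human glioblastoma line that the labels give as wild type. Each well received 1 ug of plasmid, either a negative control (3 libraries) or one for STING overexpression (3 libraries), and the labels give day 3 for all. STING is the adaptor of the pathway that senses cytosolic DNA. All libraries therefore came from transfected cells, and an untransfected group was not analysed here. Total counts ranged from 71498790 to 76566375 per library. Whether the replicates came from separate cultures is not in the labels, and the p-values therefore reflect the spread among these libraries, possibly a technical one.

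SR proteins bind exonic sequences through RNA recognition motifs and recruit the splicing machinery through a tail rich in arginine and serine. SRPK kinases phosphorylate that tail in the cytoplasm, the importin TNPO3 carries the protein into the nucleus, and CLK kinases phosphorylate it further there. hnRNP proteins often act against SR proteins at the same exons. Many SR genes limit their own output by splicing in a poison exon, which exposes the transcript to nonsense-mediated decay, and several SR proteins also help to export mRNA.

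With the STING plasmid 1 of the 10 genes rose and 0 fell, and the other 9 missed the threshold. The gene that rose was SRSF7, an SR protein with a zinc knuckle beside its RNA recognition motif, 16.3% above the control level. In bulk RNA a change in the mix of cells and a change in RNA per cell cannot be told apart. SRSF10, which is known as a splicing repressor in its dephosphorylated form, had the next largest estimate, 1.09 times the control level, and did not pass. Estimates of the other 8 genes lay between −0.02 and 0.08 on the log2 scale. The test was edgeR's quasi-likelihood test over 21679 genes with Benjamini-Hochberg adjustment and a threshold of 0.05. All 10 genes were among those tested. Of all tested genes 1.49% passed in either direction, 0.604% as higher and 0.89% as lower. DESeq2 also called 1 of the 10 genes, against 4.62% of all genes, and limma-voom called 0, against 0.632%. Among the 10 genes 2 had an unadjusted edgeR p under 0.05, against 14.4% of all genes tested.

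The promoter of SRSF7 is shown because it belongs to the gene that rose. Those of SRSF10, with the next largest estimate, and of SRSF3, which did not pass, are shown for comparison. The motifs were chosen after the sequences and the values had been seen. The sequences are the 250 bases before a RefSeq gene start (GRCh38.p14), read 5′ to 3′ along the gene's strand. Capitals mark GCATGCGC, an NRF1-type motif. They also mark the SP/KLF-type motif GGGCGG in either orientation, and the TATA box TATAAA.
SRSF7 (chr2:38751495-38751744, minus strand): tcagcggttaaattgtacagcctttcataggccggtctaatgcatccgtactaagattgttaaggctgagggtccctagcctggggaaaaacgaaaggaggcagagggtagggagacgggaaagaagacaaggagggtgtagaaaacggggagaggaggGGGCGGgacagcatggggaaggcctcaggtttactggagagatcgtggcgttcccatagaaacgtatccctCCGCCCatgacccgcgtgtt
SRSF10 (chr1:23980328-23980577, minus strand): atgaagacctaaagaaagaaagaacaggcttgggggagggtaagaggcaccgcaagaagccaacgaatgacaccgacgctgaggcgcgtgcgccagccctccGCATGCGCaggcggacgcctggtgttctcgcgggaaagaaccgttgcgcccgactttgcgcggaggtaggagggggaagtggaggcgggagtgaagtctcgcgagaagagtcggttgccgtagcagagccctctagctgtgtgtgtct
SRSF3 (chr6:36594112-36594361, plus strand): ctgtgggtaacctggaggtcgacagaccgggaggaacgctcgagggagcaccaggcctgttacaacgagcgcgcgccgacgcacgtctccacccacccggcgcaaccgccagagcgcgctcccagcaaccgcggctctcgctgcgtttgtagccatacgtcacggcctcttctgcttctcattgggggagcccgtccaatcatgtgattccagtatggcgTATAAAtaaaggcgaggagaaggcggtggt

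SRSF7 has another RefSeq start further along the gene, and the NRF1-type motif lies before that one, in the stretch shown here with the motif in capitals.
SRSF7 inner start (chr2:38751397-38751426, minus strand): aacgagatgacGCATGCGCaaagcgcagcg

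RefSeq windows, from 250 bases before to 50 bases after a start, were matched to 9 of the 10 genes (11 windows, with 2 each for SRSF7 and SRSF11; SRSF2 was not matched). Both strands were searched, and motifs may overlap. In all 10 motifs were searched. GCATGCGC occurred in 1 of the 2 windows of SRSF7, in that of SRSF10 and in 3.05% of all 35116 windows. TATAAA or its reverse occurred in windows of SRSF3, SRSF7 and SRSF11 and in 11.5% of all windows. In SRSF7 TATAAA lay at −27 to −22 from the inner start, outside the stretches shown. The SP/KLF-type motif occurred in windows of SRSF4, SRSF6, SRSF7 and SRSF11 and in 45.0% of all. The interferon-stimulated response element, the GAS motif TTCNNNGAA and the NF-kB motif, searched because they are known from pathways downstream of STING, occurred in 0 of the 11 windows and in 3.57%, 7.66% and 0.191% of all windows. The ETS motif CCGGAAGT occurred in windows of SRSF4 and SRSF5 and in 4.14% of all. The CRE-type motif TGACGT occurred in windows of SRSF1, SRSF3 and SRSF5 and in 7.98% of all. The CCAAT box occurred in the window of SRSF3 and in 34.6% of all, and the E-box CACGTG in 0 of the 11 windows and in 7.26% of all. These are matches of letters in these windows and carry no measurement of binding.

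In the control libraries the SR genes were well expressed. Levels between genes are compared here in the deposited FPKM, which is scaled to gene length. Control means ran from 16.8 for SRSF4 to 68.1 for SRSF2, against a median of 1.77 FPKM over all tested genes, and each of the 10 genes lay above at least 87.8% of the tested genes. SRSF2 (ENSG00000161547, chromosome 17, 76734115 to 76737333), also known as SC35 of nuclear speckles, was highest at 68.1 ± 2.12 FPKM (SD, n = 3). SRSF1 (ENSG00000136450, chromosome 17, 58000919 to 58007261), the founding member and a known proto-oncogene, followed at 54.1 ± 1.33 FPKM. SRSF3 (ENSG00000112081, chromosome 6, 36594353 to 36605600), the smallest SR protein and an mRNA export adaptor, stood at 42.1 ± 1.49 FPKM. SRSF6 (ENSG00000124193, chromosome 20, 43457893 to 43464243), which carries a pair of RNA recognition motifs, stood at 38.4 ± 0.338 FPKM. The 3 control libraries of each of these genes lay apart from those of the next gene in the order.

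The remaining 6 genes formed a lower tier. SRSF7 (ENSG00000115875, chromosome 2, 38743599 to 38751494) had 28.02 ± 0.115 FPKM, SRSF5 (ENSG00000100650, chromosome 14, 69726900 to 69772005) 27.4 ± 0.330 FPKM and SRSF9 (ENSG00000111786, chromosome 12, 120461672 to 120469748) 25.5 ± 0.957 FPKM. SRSF5 and SRSF9, like SRSF6, each hold a pair of RNA recognition motifs. SRSF11 (ENSG00000116754, chromosome 1, 70205682 to 70252001), a more distant SR protein, had 25.3 ± 0.556 FPKM. SRSF10 (ENSG00000188529, chromosome 1, 23964347 to 23980331) had 17.1 ± 0.145 FPKM and SRSF4 (ENSG00000116350, chromosome 1, 29147743 to 29181900), the SR protein with a long arginine-serine tail, 16.8 ± 0.339 FPKM. SRSF9 and SRSF11 overlapped each other, as did SRSF10 and SRSF4, while the other neighbours in the order did not. The first 5 places were the same in each of the 6 libraries.

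**Figure D1:**
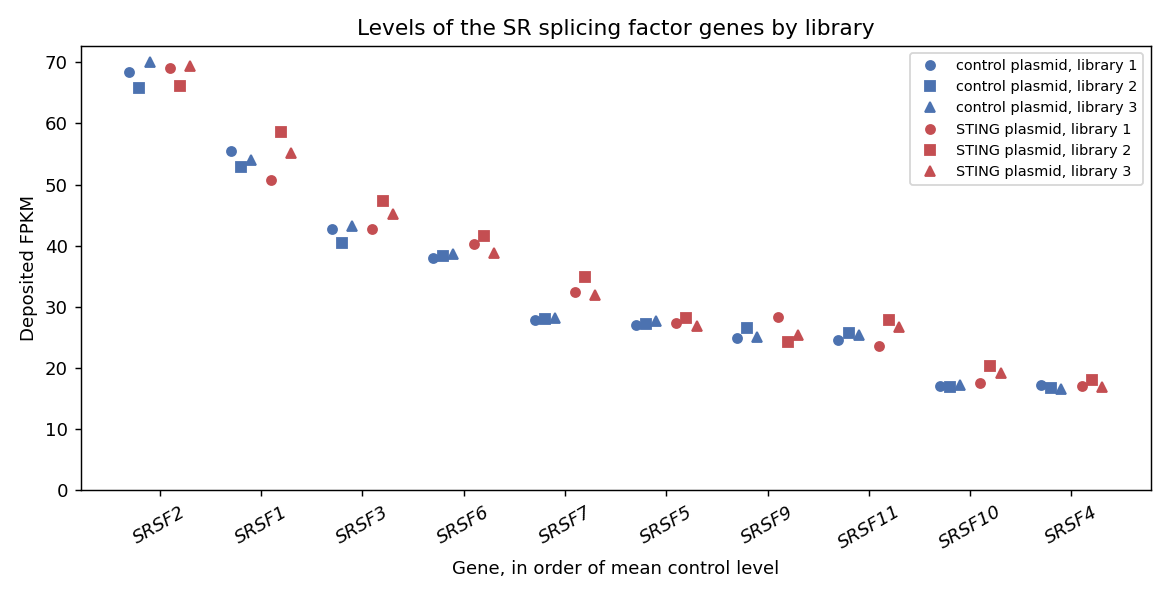
Deposited FPKM (vertical axis) of the 10 SR genes in 3 control libraries (blue) and 3 STING plasmid libraries (red), with genes ordered by mean control level. Levels run from 16.8 FPKM for SRSF4 to 68.1 for SRSF2 in the controls, and SRSF7 holds the fifth place in every library.

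The order depends on the gene lengths behind the FPKM. The length implied by counts and FPKM was 12833 bases for SRSF10 and 3220 for SRSF2. Per library size alone, in CPM (counts scaled to library size with TMM factors), SRSF1 was highest at 341 ± 5.17 CPM and SRSF9 lowest at 103 ± 4.63 CPM (SD, n = 3), and SRSF10, at 221 ± 3.05 CPM, was level with SRSF2 at 221 ± 7.01 CPM. The merged GENCODE v29 exons of these genes span 10277 and 3017 bases, while for SRSF1 the implied length of 6254 bases was well above the 3340 merged bases. GENCODE v29 lists 19 transcripts for SRSF5, 16 each for SRSF10 and SRSF11, and 2 for SRSF6. For SRSF7 it lists 12, of which 6 are of the nonsense-mediated decay type, the most of any of the 10 genes, and 4 are protein-coding. The deposited counts give 1 value per gene, so poison-exon and coding transcripts were not separated.

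SRSF7 was counted 8933, 8819 and 9438 times in control libraries 1, 2 and 3 and 10932, 11597 and 10577 times in STING libraries 1, 2 and 3. In CPM these were 122, 125 and 125 in the controls and 142, 150 and 139 with the STING plasmid. All 3 STING libraries lay above all 3 control libraries, and the lowest STING library was 11.4% above the highest control. SRSF7 rose from 124 ± 1.86 to 144 ± 5.55 CPM (SD, n = 3), a log2 fold change of 0.22 (standard error 0.046, 95% interval 0.12 to 0.32, edgeR adjusted p = 0.0291). By unadjusted p it was number 176 among the 21679 genes tested. In a two-sided exact permutation test its CPM values reached p = 0.1, and a design of 3 against 3 libraries cannot go lower. STING1, the gene on the plasmid, rose 1.51-fold in the same fit (edgeR adjusted p = 0.00221).

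The SRSF7 call was close to the threshold. With 1 library left out the log2 fold change stayed between 0.187 and 0.240, but the call was kept only without STING library 1. Without control library 1, 2 or 3 the edgeR adjusted p was 0.165, 0.137 and 0.122. It was 0.123 without STING library 2 and 0.0541 without STING library 3. Limma-voom gave an adjusted p of 0.0593, and limma on log2(FPKM + 0.1) 0.130. No other listed gene model overlaps SRSF7 on either strand.

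SRSF7 was also compared with the rest of the family within each library, a ratio that needs no scaling between libraries. This ratio was chosen after the values had been seen and is given as a description. SRSF7 counts equalled 6.22%, 6.35% and 6.24% of the summed counts of the other 9 genes in control libraries 1, 2 and 3. They equalled 7.24%, 7.24% and 6.89% in STING libraries 1, 2 and 3. The groups did not overlap, with means of 6.27 ± 0.0683% and 7.12 ± 0.199% (SD, n = 3). Against SRSF3, its closest relative by structure, the FPKM of SRSF7 was 65.3%, 69.3% and 65.1% in the controls and 75.8%, 73.9% and 70.9% with the STING plasmid. The groups did not overlap in this ratio either.

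**Figure D2:**
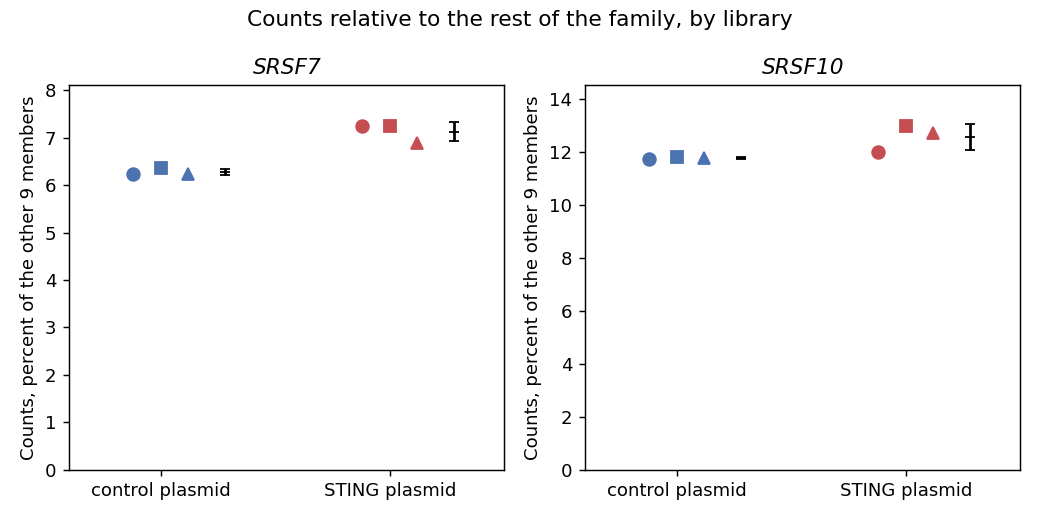
Counts of SRSF7 (left) and SRSF10 (right) as a percent of the summed counts of the other 9 SR genes, by library (points) with the group mean and SD (black). SRSF7 lies at 6.22% to 6.35% in the controls and 6.89% to 7.24% with the STING plasmid. SRSF10 lies at 11.759% to 11.835% in the controls and 12.018% to 12.982% with the STING plasmid, also without overlap. Its range with the STING plasmid is wider than in the controls.

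SRSF10 stood at 218, 221 and 224 CPM in control libraries 1, 2 and 3 and at 226, 255 and 244 CPM in STING libraries 1, 2 and 3. The groups did not overlap, but STING library 1 exceeded the highest control by only 0.872%. The log2 fold change was 0.13 (standard error 0.049, 95% interval 0.03 to 0.23, edgeR adjusted p = 0.214). Without STING library 1 the log2 fold change was 0.174 and the gene passed (edgeR adjusted p = 0.0294). Without STING library 2 it was 0.0883 (edgeR adjusted p = 0.558). SRSF7 and SRSF10 were the 2 of 10 genes whose CPM did not overlap between groups with the STING plasmid higher, against 10.1% of all tested genes. None of the 10 genes lay lower without overlap, against 9.73% of all tested genes.

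SRSF3 stood at 327, 316 and 338 CPM in control libraries 1, 2 and 3 and at 330, 357 and 346 CPM in STING libraries 1, 2 and 3, and the groups overlapped. Its log2 fold change was 0.08 (95% interval −0.02 to 0.17, edgeR adjusted p = 0.502). SRSF6 was at 205 ± 3.89 and 212 ± 6.15 CPM (SD, n = 3), with a log2 fold change of 0.05 (95% interval −0.04 to 0.14). Its CPM values overlapped between the groups, whereas its FPKM values, scaled to total counts, did not (38.7 at most in the controls and 38.9 at least with the STING plasmid). SRSF4 was at 161 ± 1.40 and 164 ± 3.84 CPM, with a log2 fold change of 0.02 (95% interval −0.07 to 0.11). These 3 genes had positive estimates and none passed.

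**Figure D3:**
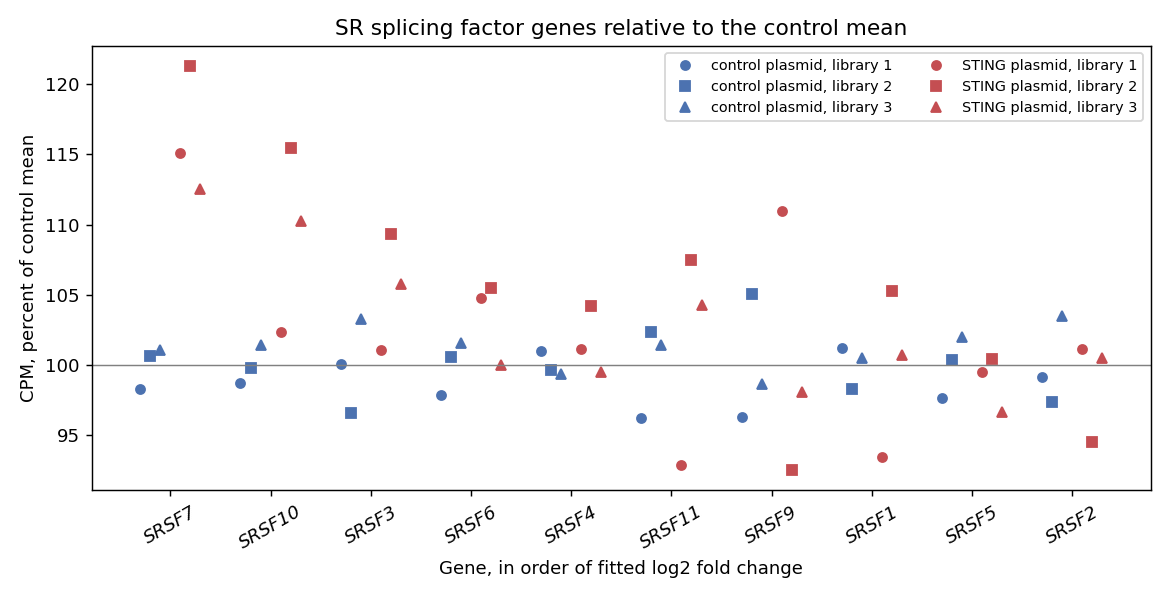
CPM of each SR gene in each library as a percent of its control mean (vertical axis), with control libraries in blue, STING plasmid libraries in red and the library number as the marker shape. SRSF7 is the gene at the left, with all 3 STING libraries above all controls; STING library 1 departs from libraries 2 and 3 in SRSF9, SRSF11 and SRSF1.

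SRSF1, SRSF2 and SRSF5 had estimates just below 0. SRSF1 stood at 345, 335 and 343 CPM in the controls and at 319, 359 and 344 CPM in STING libraries 1, 2 and 3, so the STING libraries lay on both sides of the controls. Its log2 fold change was −0.0025 (95% interval −0.10 to 0.10). SRSF2 was at 221 ± 7.01 and 218 ± 8.11 CPM, with a log2 fold change of −0.02 (95% interval −0.12 to 0.08). SRSF5 was at 160 ± 3.47 and 158 ± 3.10 CPM, with a log2 fold change of −0.02 (95% interval −0.11 to 0.08). The intervals, which are not adjusted for the number of genes, ran from 0.923 to 1.07 times the control level over these 3 genes.

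SRSF9 and SRSF11 varied more within the STING group than between the groups. The same held for SRSF1, SRSF2, SRSF4 and SRSF5, by the SD of the STING libraries against the difference of the group means. SRSF9 stood at 99.0, 108 and 101 CPM in the controls and at 114, 95.1 and 101 CPM in STING libraries 1, 2 and 3. The highest and the lowest of its 6 values were thus both STING libraries. SRSF11 stood at 225, 239 and 237 CPM in the controls and at 217, 251.1 and 244 CPM in STING libraries 1, 2 and 3, with STING library 1 the lowest of all. The log2 fold changes of SRSF9 and SRSF11 were 0.0076 (95% interval −0.13 to 0.14) and 0.02 (95% interval −0.09 to 0.14).

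Some SR genes share their position with another model, and the strand setting of the counts is not given in the sources used here. The 5′ part of SRSF2 overlaps MFSD11 on the opposite strand, which stood at 50.4 ± 3.17 and 45.4 ± 4.83 CPM, and the sum of both was 271 ± 5.03 and 264 ± 3.30 CPM (SD, n = 3). SRSF9 overlaps GATC on the opposite strand, at 51.2 ± 2.99 and 51.0 ± 3.71 CPM. SRSF1 overlaps the model AC015813 (ENSG00000266086) on the same strand, at 17.1 ± 1.11 and 15.6 ± 3.57 CPM. These 3 models did not pass the test, and reads could have been split between the models of each pair. The 4 listed pseudogenes of SR genes had at most 4 counts in any library.

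Summed over the 10 genes, the family stood at 2074, 2085 and 2128 CPM in control libraries 1, 2 and 3 and at 2109, 2221 and 2158 CPM in STING libraries 1, 2 and 3. In CPM the groups overlapped, because STING library 1 lay between the controls. In FPKM the sums did not overlap, at 338 to 346 in the controls and 349 to 367 with the STING plasmid. The family took 0.204% to 0.211% of all counts in the controls and 0.212% to 0.227% with the STING plasmid. Relative to the control mean, 7, 8 and 6 of the 10 genes were higher in STING libraries 1, 2 and 3. In control libraries 1, 2 and 3 these counts were 3, 5 and 8. SRSF7 had the largest deviation in each STING library. The median log2 fold change was 0.02 over the 10 genes and 0.001 over all genes tested. With total-count scaling, on which FPKM and the percent of counts rest, these medians were 0.05 and 0.03.

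The dependence of the counts on base composition differed between libraries. The log2 change per 10% of GC content was 0.0142 to 0.0434 in the control libraries, 0.0308 in STING library 1, and −0.0678 and −0.0378 in STING libraries 2 and 3. SR transcripts are poor in GC. The longest GENCODE transcripts of the 10 genes held 36.6% (SRSF11) to 45.6% (SRSF2) GC, against a median of 47.9% over all genes tested. After correction of each library for GC content and length, SRSF7 had a log2 fold change of 0.168 and still passed (edgeR adjusted p = 0.0359). SRSF10 had one of 0.0802 (edgeR adjusted p = 0.248). The median of the 10 genes was then −0.02, and 4 estimates were positive in place of 7.

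**Figure D4:**
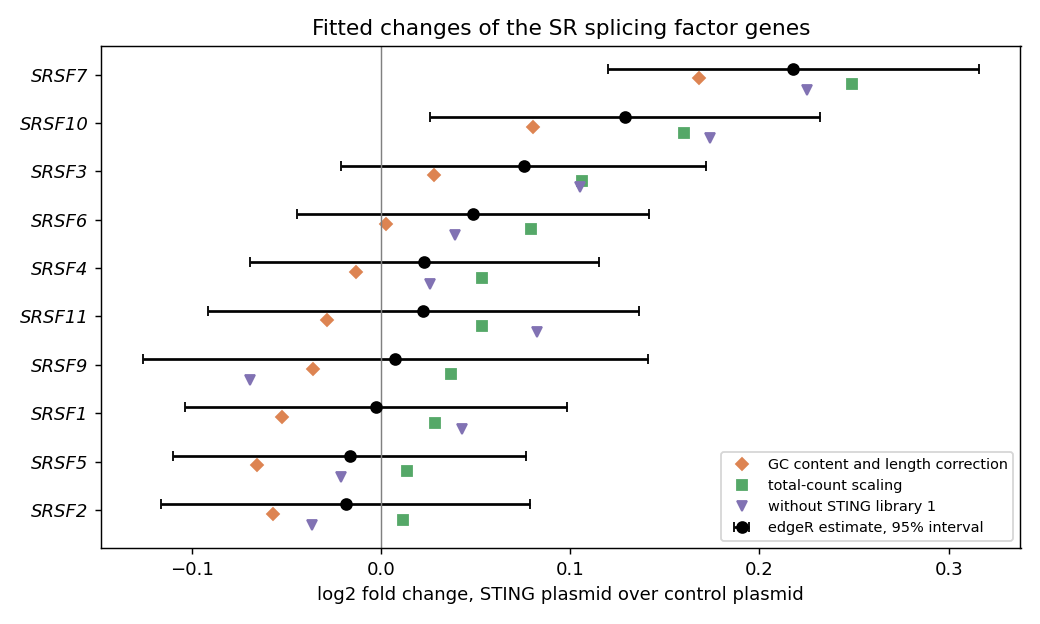
Fitted log2 fold change of each SR gene, STING plasmid over control plasmid (black points, with 95% intervals), and the estimates with GC content and length corrected, with scaling to total counts and without STING library 1. SRSF7 lies highest, at 0.22 with an interval of 0.12 to 0.32, and the correction for GC content and length shifts every SR gene to the left.

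The kinases and the importin that act on SR proteins were examined next. Of 10 genes 0 rose, 0 fell and 10 did not pass, while 1.49% of all genes tested passed. An unadjusted edgeR p under 0.05 was seen for 3, against 14.4% of all genes tested. DESeq2 and limma-voom called 0, against 4.62% and 0.632% of all genes tested. CLK1, a nuclear kinase of SR proteins, was at 65.0 ± 2.22 and 70.5 ± 2.21 CPM (SD, n = 3, edgeR adjusted p = 0.291). SRPK1, the main cytoplasmic kinase, was at 137 ± 5.51 and 148 ± 3.87 CPM (edgeR adjusted p = 0.286). The CPM of CLK1, SRPK1 and PRPF4B, another kinase of splicing factors, did not overlap between the groups, with the STING plasmid higher, against 10.1% of all genes tested. PRPF4B had a log2 fold change of 0.10 (edgeR adjusted p = 0.406), and its FPKM values overlapped. CLK3 was at 77.8 ± 4.42 and 70.4 ± 5.17 CPM, with a log2 fold change of −0.15 (edgeR adjusted p = 0.268). CLK2, CLK4 and SRPK2 had log2 fold changes of 0.01, 0.02 and 0.07. SRPK3, known from muscle, was low, at 0.801 ± 0.272 and 0.743 ± 0.227 CPM. The median of the list was 0.04, with 8 positive estimates, against 0.001 over all genes tested. After GC and length correction the list median was 0.02, with 6 positive estimates.

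The remaining lists around SR proteins had 0 edgeR calls in either direction. At the shares called over all genes, lists this small can hold 0 calls. Of 16 SR-like and SR-related proteins 0 passed in edgeR, DESeq2 or limma-voom, against 1.49%, 4.62% and 0.632% of all genes tested. An unadjusted edgeR p under 0.05 was seen for 0 of them, against 14.4% of all genes tested. The median log2 fold change of the 16 was 0.05, with 13 positive estimates, against 50.2% positive over all genes tested. After GC and length correction the median was 0.01, with 10 positive estimates. The speckle scaffold SRRM2 was at 702 ± 6.57 and 702 ± 20.4 CPM, and PNN had a log2 fold change of 0.05. The list holds both remaining SRSF genes: SRSF8 stood at 33.4 ± 0.266 and 30.8 ± 0.359 CPM (edgeR adjusted p = 0.407), and all 3 STING libraries lay below all 3 controls in CPM and in FPKM. SRSF8 was the 1 of 16 genes lower without overlap in CPM, against 9.73% of all genes tested. Another 3 of the 16 were higher without overlap in CPM, against 10.1% of all genes tested. SRSF12 was low, at 0.376 ± 0.0497 and 0.325 ± 0.156 CPM. These values of SRSF8 and SRSF12 are given because they complete the gene family, not by the rule for named genes.

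Of 25 hnRNP genes and related antagonists 0 passed in edgeR and limma-voom, against 1.49% and 0.632% of all genes tested. An unadjusted edgeR p under 0.05 was seen for 2, against 14.4% of all genes tested. The most abundant of the 25, HNRNPA2B1 and HNRNPA1, had log2 fold changes of −0.03 (95% interval −0.12 to 0.05) and −0.02 (95% interval −0.11 to 0.07). DESeq2 called 1 of the 25 genes, against 4.62% of all genes tested. That gene was PTBP1, a repressor of many exons, which was named after its values were seen. PTBP1 was at 463 ± 3.07 and 414 ± 18.5 CPM, with a log2 fold change of −0.16 (edgeR adjusted p = 0.0816). The median of the list was −0.01, with 10 positive and 15 negative estimates. With total-count scaling the list median was 0.02, against 0.03 over all genes tested. After GC and length correction it was −0.03, with 6 positive estimates.

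Of 33 core spliceosome genes 0 passed in edgeR, DESeq2 or limma-voom, against 1.49%, 4.62% and 0.632% of all genes tested. An unadjusted edgeR p under 0.05 was seen for 3, against 14.4% of all genes tested. SNRPB, a core protein of the spliceosomal snRNPs, stood at 165 ± 2.70 and 152 ± 7.65 CPM (edgeR adjusted p = 0.250). SF3B5, of the branch-site complex, had a log2 fold change of −0.12 (95% interval −0.31 to 0.06). The median of the list was −0.0059. With total-count scaling it was 0.02, against 0.03 over all genes tested.

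Genes of nonsense-mediated decay and the exon junction complex, which act on poison-exon transcripts, had 0 edgeR calls among 15. Over all genes tested 1.49% passed. Of the 15 genes 4 had an unadjusted edgeR p under 0.05, all with positive estimates. Over all genes tested 14.4% had such a p. The median of the list was 0.08, with 13 positive estimates, against 0.001 and 50.2% positive over all genes tested. The decay factors UPF1 and SMG5 had log2 fold changes of 0.03 and 0.0064. DESeq2 called 1 gene of this list, against 4.62% of all genes tested, and limma-voom called 0, against 0.632%. Of 12 mRNA export genes 0 passed in edgeR, DESeq2 or limma-voom, against 1.49%, 4.62% and 0.632% of all genes tested. An unadjusted edgeR p under 0.05 was seen for 1 of these 12, against 14.4% of all genes tested. The export factors ALYREF and DDX39B had log2 fold changes of −0.04 and 0.0033, and the median of the list was 0.03.

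**Figure D5:**
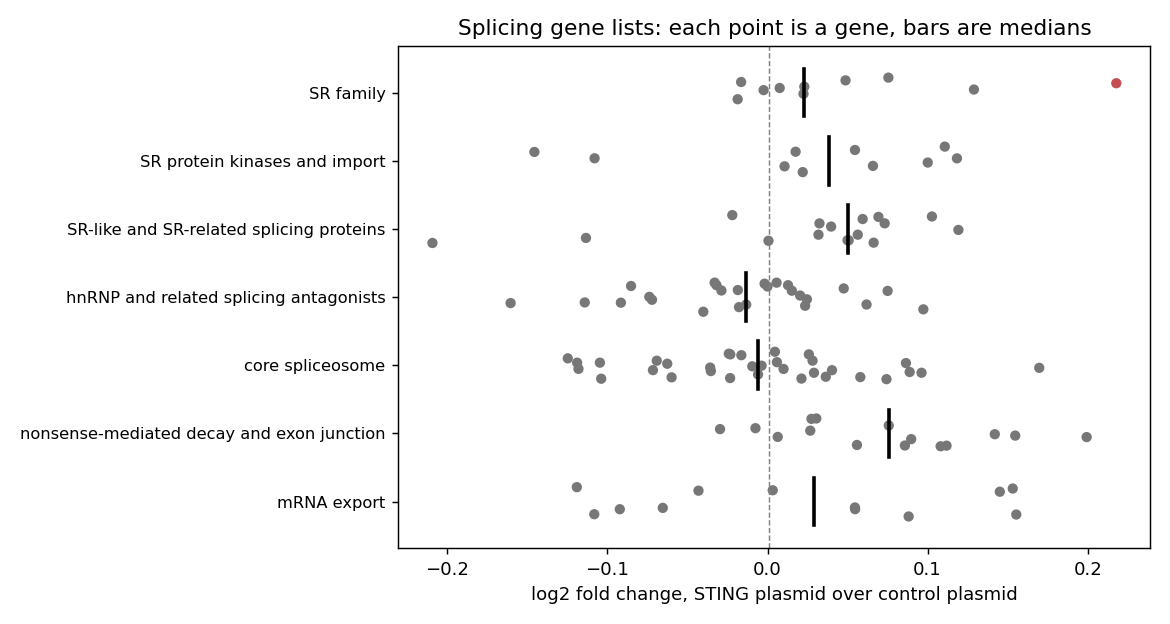
Log2 fold change of each gene (points) in the SR family and 6 other splicing lists, with list medians (black bars) and the median of all genes tested (dashed line). The single red point, SRSF7, is the only gene of these lists past the edgeR threshold, which 1.49% of all genes tested passed. List medians run from −0.01 to 0.08.

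Some, but not all, markers chosen for the labelled cell type were present. Of 9 glioma and astroglia markers 8 were among the listed genes, and 6 exceeded 1 FPKM. These were VIM, CD44, SOX2, NES, SLC1A3 and GFAP, with GFAP the lowest of them. S100B and CHI3L1 were near 0. The 8 markers summed to 651 to 686 FPKM in the controls and 626 to 645 FPKM with the STING plasmid. Most of that sum came from VIM and CD44, so it says little about the other markers. Neuronal markers summed to 6.79 to 7.52 FPKM and 7.60 to 8.03 FPKM, with SYT1 and GAD1 the 2 of 6 above 1 FPKM. Neither pair of ranges overlapped, and the part of either list in the SR gene values was not tested. Markers of oligodendrocytes, leukocytes, endothelium and epithelium summed to at most 1.81 FPKM in any library.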

How the data were processed

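Per the labels' protocols, libraries were made with the Illumina TruSeq RNA kit from 1 ug of Trizol-extracted total RNA. Bowtie 0.12.2 is named in the submitters' processing notes; for the counting program, annotation, build and strand setting, the status is: not given in the sources used here. The authors' deposited tables hold read counts and FPKM values for each Ensembl gene, per the file headers. GENCODE v29 held 40903 of the 42307 genes, 89.8% of them with a start or end within 1 base of the deposited one, so positions are given as GRCh38; this held for 6 of the 10 SR genes.

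The test on the counts used edgeR 4.0.16 under R 4.3.3 (filterByExpr, TMM, robust quasi-likelihood fit, two-sided, Benjamini-Hochberg adjustment over 21679 genes, threshold 0.05), on 3 against 3 libraries without covariates. Standard errors were approximated as |log2 fold change| over the root of the F statistic, and 95% intervals use t quantiles with the test's degrees of freedom. The procedure was tested on simulated data under 2 models of dispersion, the second added after the outcome of the first was seen. In both, the share of false calls was above the threshold and most changes of the size seen for SRSF7 were missed. Each model was run with a single seed, so how far these shares vary between runs is not known. A call of this size is thus uncertain, and a missed threshold does not show that a gene did not change. With at least 71498790 counts per library, 3 counts came to 0.0392 to 0.0420 CPM; this limit includes counting error alone.

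Alternatives comprised scaling by RLE, by upper quartile or by total counts, no filter and a stricter one (1 CPM in 3 libraries), DESeq2 1.42.0, limma-voom and limma 3.58.1 on log2(FPKM + 0.1), the replicate number as a block, offsets for GC content and length, and each library left out. The correlation of deviations between same-numbered libraries was 0.125, 0.0107 and 0.0078 for numbers 1, 2 and 3, so the numbers were not taken as pairs.

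The SR genes and the 6 other lists (111 genes) were chosen, and the promoter motifs and within-family ratios added, with earlier results of these data known. Named genes were the 10 SR genes, STING1, all CLK and SRPK kinases, the 2 genes with the highest control FPKM of each other list and any list gene past the threshold. The values of 1 gene of the lists are not reported here.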

Additional observations from a re-analysis of the deposited data

How the results depend on the processing

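SRSF7 kept a positive estimate in all 16 alternatives, between 0.168 and 0.249 on the log2 scale, and passed the threshold in 8 of them. The number of SR genes called, 1 with all libraries, was 0 with limma-voom, with limma on log2(FPKM + 0.1) and with the replicate block, and 0 to 2 with 1 library left out. With the replicate block the SRSF7 adjusted p was 0.113 and 120 genes were called in all; the libraries did not each correlate best with the same number, so the block marks no known pairing. Of the 6 other lists 0 genes were called in the edgeR test, 1 with the stricter filter, 2 with DESeq2, 1 after GC and length correction, and 0 to 3 with 1 library left out. PTBP1 was called with the stricter filter, with DESeq2 and without STING library 1, where HNRNPL was called too. Over all genes, 324 were called (131 higher, 193 lower), against 384 with total-count scaling (246 higher, 138 lower), 686 with the stricter filter, 1001 with DESeq2, 137 with limma-voom, 9 with limma on FPKM, 499 with the correction and 60 to 741 with 1 library left out. Fewer samples lower the power of a test, and the cause of the other shifts was not tested. In the order of control FPKM 8 to 10 of the 10 SR genes kept their place with 1 control library left out. The family sum with the STING plasmid was 1.04 times the control sum in FPKM and 1.03 times in CPM.

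Estimates near 0 that never passed changed sign. With total-count scaling SRSF1, SRSF2, SRSF5 and HNRNPA1 were at 0.0285, 0.0114, 0.0140 and 0.0130, and with limma on FPKM at 0.0171, 0.00239, 0.00446 and 0.00239. After GC and length correction SRSF4, SRSF9, SRSF11, CLK4, TNPO3, ALYREF and DDX39B were at −0.0134, −0.0360, −0.0286, −0.0297, −0.00552, 0.0238 and −0.000237. With upper-quartile scaling SRSF9, SRRM2, SMG5 and DDX39B were at −0.00237, −0.00924, −0.00350 and −0.00659. SRRM2 was at −0.00231 with RLE scaling, −0.00128 without a filter, −0.00132 with the stricter filter and −0.00230 with DESeq2. With 1 library left out, estimates ranged from −0.0423 to 0.0427 for SRSF1, −0.0380 to 0.0120 for SRSF2, −0.0694 to 0.0639 for SRSF9 and −0.0202 to 0.0825 for SRSF11. The ranges were −0.0218 to 0.0369 for CLK2, −0.0184 to 0.0785 for CLK4, −0.385 to 0.204 for SRPK3, −0.00374 to 0.0830 for DYRK1A and −0.0145 to 0.0564 for TNPO3. They were −0.0215 to 0.0190 for SRRM2, −0.0464 to 0.0193 for HNRNPA1, −0.0258 to 0.0248 for SMG5, −0.0220 to 0.0576 for UPF1, −0.119 to 0.00803 for ALYREF and −0.0161 to 0.0197 for DDX39B.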
